A study of Mus musculus with 36 samples.

Results

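The transcription factors that build and maintain adipocytes were followed as 10 genes, Pparg, Cebpa, Cebpb, Klf15, Rxra, Ebf1, Ebf2, Zfp423, Nr1h3 and Ppard, in visceral white adipose tissue (visWAT) and liver. They were chosen by name, and all 10 were found among the 56748 genes of the deposited expression table. RNA was sequenced from 18 male mice on a C57BL/6J background, with 1 library per tissue and mouse, so that the same animals gave both tissues and 36 libraries. All mice carried floxed Mlkl, the gene of the necroptosis effector MLKL. MlklAdi-KO mice carried the Adipo-Cre transgene, which deletes Mlkl in mature adipocytes, and the WT controls were littermates without Cre. From 16 weeks of age the mice received normal chow diet (NCD) or high-fat diet (HFD) for 16 weeks, giving in each tissue 4 WT NCD, 4 MlklAdi-KO NCD, 5 WT HFD and 5 MlklAdi-KO HFD libraries. Other cells of visWAT and the liver keep Mlkl in the knockout.

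PPARγ, the product of Pparg, is a lipid-activated nuclear receptor that pairs with RXRα (Rxra) on DNA and is required for the formation and upkeep of fat cells. C/EBPβ (Cebpb) acts early in differentiation and C/EBPα (Cebpa) later, where it and PPARγ sustain each other's expression. EBF1, EBF2 and ZFP423 mark committed precursors as well as fat cells, KLF15 is a glucocorticoid-responsive factor of adipocytes and hepatocytes, and LXRα (Nr1h3) and PPARδ (Ppard) are nuclear receptors of sterol and fatty acid metabolism found in many cells. In lean liver Pparg is low, and its induction in steatotic liver is a known feature of obesity models.

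Expression was read as FPKM (fragments scaled to gene length and sequencing depth), which can be compared between genes. Libraries held 21580696 to 30322171 reads on genes in visWAT and 20875463 to 25530574 in liver. The scaling behind the FPKM differed from the plain read total by a factor of 1.01 to 1.40 in visWAT and 0.737 to 0.812 in liver, so levels of the tissues are set side by side in TPM (the share of transcripts, also scaled by length) where it matters. In visWAT, Mlkl was at 1.96 to 2.72 FPKM in the MlklAdi-KO libraries and at 3.91 to 6.28 in the WT libraries other than the library labelled WT NCD mouse 182, which was at 2.29 and so went against its label. The visWAT library of WT NCD mouse 183 had 19.6% of its reads on 10 seminal vesicle genes. The tests of the factors that rest on WT NCD visWAT were therefore repeated without these mice. Marker and target lists, their summed levels and the ratios between tissues include them. The tissue labels were checked against a defining marker of fat: Adipoq, which encodes adiponectin, was at 743 to 1995 FPKM in visWAT and at 0 to 2.70 in liver.

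Pparg (ENSMUSG00000000440) lies on the plus strand at chr6:115337912-115467360 (GRCm39) and is transcribed from alternative start sites. The most downstream of them starts the fat-enriched isoform PPARγ2. The table gives 1 value per gene, so the isoforms cannot be told apart here. RefSeq start-site windows (build GRCm38.p6) were on hand for 9 of the 10 genes, all but Ebf2. The 250 bases upstream of the 3 Pparg starts and of the Cebpa start are shown because these genes fell together in visWAT on HFD. Capitals mark matches on either strand to AGGTCA (the core motif of PPAR and RXR sites), TTGCNNAA (a C/EBP motif), to the palindromic EBF motif or to GGGCGG (a GC box, bound by KLF and SP proteins).
Pparg window 1, chr6:115360894-115361143, plus strand: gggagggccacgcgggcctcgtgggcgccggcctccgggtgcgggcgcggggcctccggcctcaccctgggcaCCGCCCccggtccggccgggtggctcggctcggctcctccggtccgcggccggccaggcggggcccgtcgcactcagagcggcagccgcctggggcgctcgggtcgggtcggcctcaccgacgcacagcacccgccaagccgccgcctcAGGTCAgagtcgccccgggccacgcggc
Pparg window 2, chr6:115362099-115362348, plus strand: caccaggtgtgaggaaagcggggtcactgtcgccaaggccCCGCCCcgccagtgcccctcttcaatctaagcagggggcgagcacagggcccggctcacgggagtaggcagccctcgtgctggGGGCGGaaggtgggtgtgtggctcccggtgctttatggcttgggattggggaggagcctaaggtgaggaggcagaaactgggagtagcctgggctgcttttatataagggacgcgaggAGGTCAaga
Pparg window 3, chr6:115421816-115422065, plus strand: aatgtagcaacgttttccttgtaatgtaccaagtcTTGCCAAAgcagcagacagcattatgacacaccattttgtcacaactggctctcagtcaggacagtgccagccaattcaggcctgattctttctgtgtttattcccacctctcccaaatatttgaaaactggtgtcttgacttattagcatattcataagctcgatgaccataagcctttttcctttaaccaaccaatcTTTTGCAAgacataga
Cebpa window, chr7:35119043-35119292, plus strand: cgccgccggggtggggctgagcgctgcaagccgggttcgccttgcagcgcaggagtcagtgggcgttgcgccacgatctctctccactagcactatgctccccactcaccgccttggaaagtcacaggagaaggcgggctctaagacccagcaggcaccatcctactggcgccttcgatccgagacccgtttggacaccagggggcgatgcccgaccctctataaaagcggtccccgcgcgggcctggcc
The upstream Pparg windows were rich in G and C (82.4% and 63.6%) and each held 1 AGGTCA and at least 1 GC box. The downstream window was at 40.8% and held neither, but had 2 matches to TTGCNNAA, at 215 and 16 bases before the start. The Cebpa window held none of these letters. Among 32851 RefSeq windows of the same length, AGGTCA occurred in 14.02%, TTGCNNAA in 9.56%, GGGCGG in 32.7% and the EBF motif in 0.779%. The direct repeat of AGGTCA with 1 base between, the full site of the PPAR and RXR pair, which overlaps the single motif, occurred in 0.0335% and in no window of the 9 genes. A match describes the letters and was not tested for binding.

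In visWAT, HFD was accompanied by lower levels of the core factors in both genotypes, with Klf15 down by the largest amount in WT and with Nr1h3 and Zfp423 higher. Differences were tested with limma on log2(FPKM + 1) over all genes with a mean of at least 0.5 FPKM, and a gene was called at an adjusted p (Benjamini-Hochberg) below 0.05. In WT visWAT, 6 of 10 factors fell and 2 rose, where 15.8% of 14161 genes tested fell and 21.9% rose. In MlklAdi-KO visWAT, 6 fell and 2 rose, where 20.3% and 23.3% of 14026 genes did. The median log2 difference of the 10 factors was -0.48 in WT and -0.68 in MlklAdi-KO, and that of all genes was -0.01 and 0.01.

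**Figure D1:**
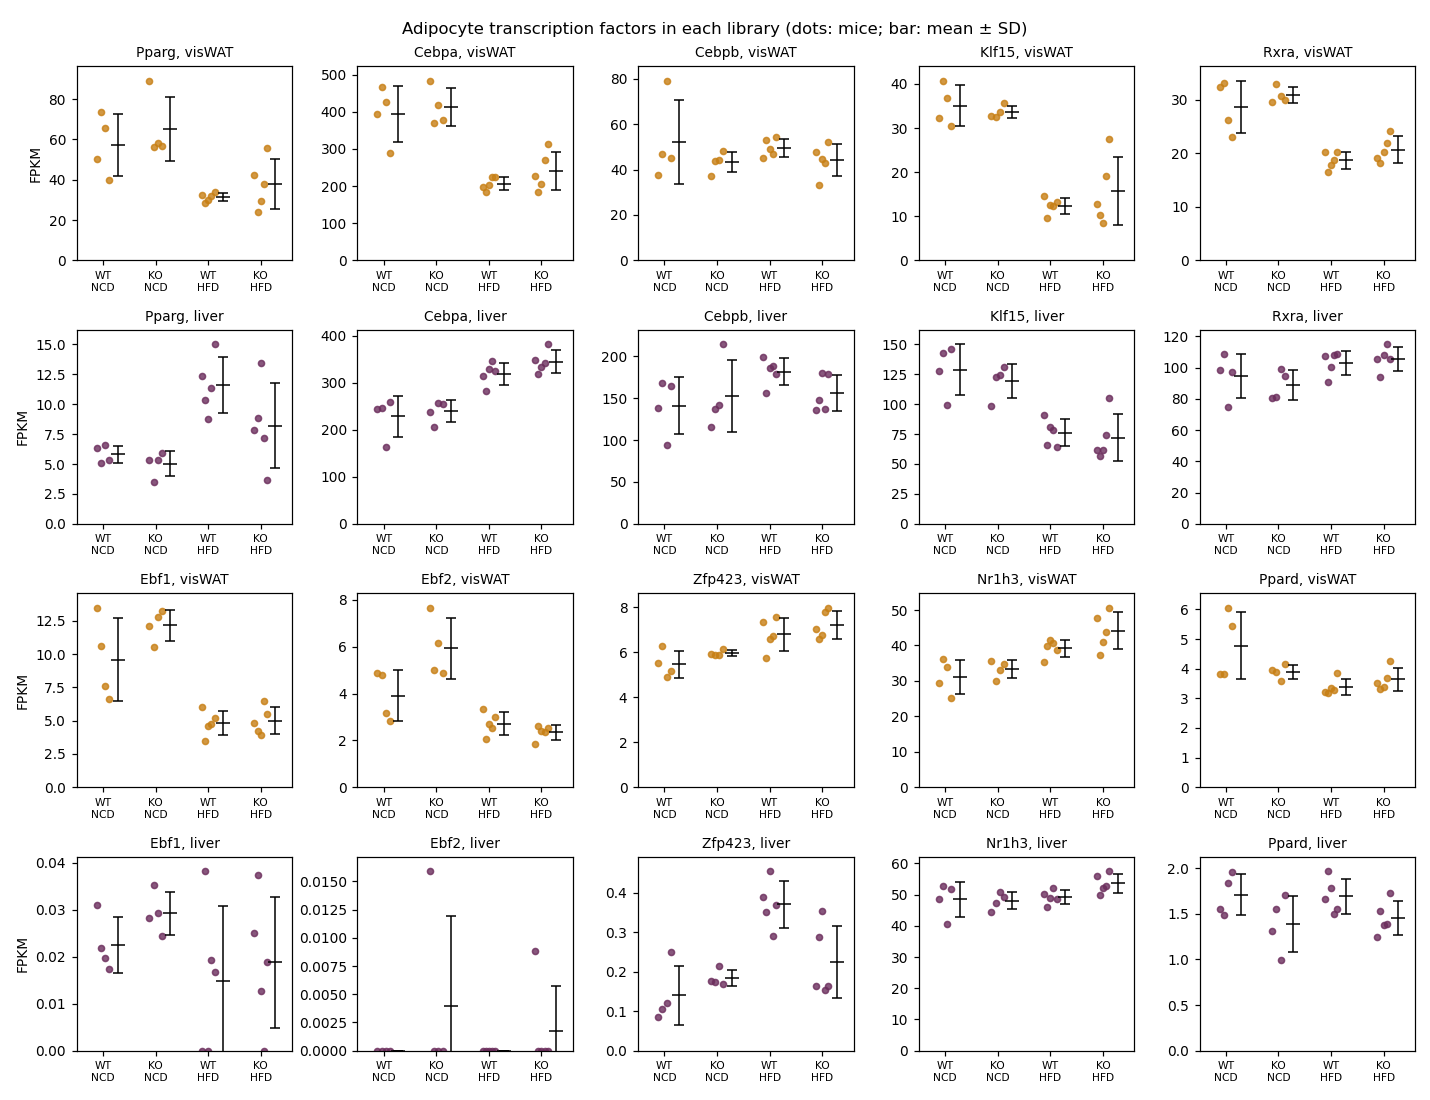
FPKM (linear axes from 0) of the 10 factors in each of the 36 libraries, by tissue, genotype (KO, MlklAdi-KO) and diet, with dots for mice and bars for mean ± SD, cut at 0. Pparg and Cebpa are lower on HFD in visWAT and higher on HFD in WT liver, where Pparg goes from 5.83 to 11.6 FPKM on average.

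The master regulator Pparg was at 50.3, 73.4, 65.6 and 39.6 FPKM in WT NCD visWAT (mice 165, 180, 182 and 183) and at 32.3, 28.5, 30.1, 32.1 and 34.0 in WT HFD visWAT (mice 154, 155, 161, 162 and 164). In MlklAdi-KO visWAT it was at 89.1, 56.5, 58.2 and 56.8 on NCD (mice 166, 179, 197 and 199) and at 42.2, 23.9, 29.4, 38.0 and 55.7 on HFD (mice 151, 152, 153, 156 and 157). Diets did not overlap in either genotype, but the highest MlklAdi-KO HFD mouse came within 1 FPKM of the lowest NCD mouse of its genotype. On the log2 scale Pparg fell by 0.81 ± 0.17 (SE, adjusted p = 0.0042) in WT and by 0.80 ± 0.24 (adjusted p = 0.024) in MlklAdi-KO. In MlklAdi-KO the call was lost without NCD mouse 166 (adjusted p = 0.069) and without HFD mouse 153 (adjusted p = 0.0505), with log2 differences of -0.64 and -0.73.

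Cebpa, the partner that maintains Pparg in mature adipocytes, followed it most closely. Cebpa was at 394, 467, 425 and 290 FPKM in WT NCD visWAT and at 198, 184, 202, 225 and 224 in WT HFD visWAT, and fell by 0.91 ± 0.15 (adjusted p = 0.0012). In MlklAdi-KO visWAT it fell by 0.80 ± 0.16 (adjusted p = 0.0042), from 412 ± 51.7 FPKM (SD, n = 4) to 240 ± 51.4 (n = 5). Over the 18 visWAT libraries Cebpa was the gene most like Pparg of 11195 genes ranked (Pearson r = 0.96 in log2(FPKM + 1)), ahead of Pfkfb1, Atl2, Srebf1 and Txnrd3 (0.94 to 0.95). The correlation of Pparg with Cebpa was 0.93 over the 8 NCD libraries and 0.90 over the 10 HFD libraries. These libraries share their diet groups and their content of fat cells, and the values are a description.

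Klf15, a Kruppel-like factor that also acts in glucose and amino acid metabolism, was at 32.4, 40.7, 36.9 and 30.5 FPKM in WT NCD visWAT and at 14.6, 9.54, 12.5, 12.3 and 13.1 in WT HFD visWAT. No HFD mouse reached the lowest NCD mouse. Klf15 fell by 1.43 ± 0.13 (adjusted p = 2.5e-05) in WT and by 1.17 ± 0.29 (adjusted p = 0.0099) in MlklAdi-KO, where HFD mice were spread from 8.56 to 27.5 FPKM. Rxra, the shared partner of PPARs and LXRs, fell by 0.58 ± 0.12 (adjusted p = 0.0042) in WT and by 0.56 ± 0.09 (adjusted p = 0.0012) in MlklAdi-KO, to 18.7 ± 1.63 and 20.7 ± 2.44 FPKM on HFD.

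The EBF factors, which open chromatin in fat precursors, were at lower levels than Pparg. Ebf1 fell by 0.83 ± 0.20 (adjusted p = 0.0089) in WT and by 1.15 ± 0.12 (adjusted p = 3.3e-04) in MlklAdi-KO. Its WT NCD values, 13.5, 10.6, 7.57 and 6.62 FPKM, had their lowest members in mice 182 and 183, and the WT HFD values ran from 3.51 to 6.05. Ebf2 fell by 1.04 ± 0.12 (adjusted p = 4.6e-04) in MlklAdi-KO, from 5.93 ± 1.30 to 2.34 ± 0.31 FPKM. In WT its difference was -0.39 ± 0.15 (adjusted p = 0.078), and without WT NCD mouse 183 it was called, at -0.50 (adjusted p = 0.023).

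Nr1h3 and Zfp423 went the other way. Nr1h3 rose by 0.34 ± 0.11 (adjusted p = 0.039) in WT and by 0.39 ± 0.10 (adjusted p = 0.011) in MlklAdi-KO, from 33.4 ± 2.53 to 44.1 ± 5.27 FPKM. Zfp423, a zinc finger factor of preadipocyte commitment, rose by 0.27 ± 0.09 (adjusted p = 0.041) in WT and by 0.24 ± 0.06 (adjusted p = 0.013) in MlklAdi-KO. Ppard fell by 0.38 ± 0.12 (adjusted p = 0.036) in WT and had a difference of -0.08 ± 0.07 (adjusted p = 0.37) in MlklAdi-KO. Its WT NCD values were 3.82, 3.82, 6.06 and 5.42 FPKM, so the excess over the HFD range of 3.19 to 3.85 lay in mice 182 and 183. Without both mice the Ppard difference was -0.14 (adjusted p = 0.13). Cebpb, the early factor, differed by -0.02 ± 0.19 (adjusted p = 0.95) and 0.02 ± 0.13 (adjusted p = 0.92). In WT NCD, the library labelled mouse 182 had the highest Cebpb level, 79.1 FPKM against 37.6 to 46.9 in the other mice.

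The WT calls of Nr1h3, Zfp423 and Ppard were each lost without NCD mouse 183, HFD mouse 161 or HFD mouse 162 alone, and Zfp423 and Nr1h3 also without NCD mouse 165 or HFD mouse 164, Zfp423 and Ppard without NCD mouse 182 or HFD mouse 154, and Nr1h3 and Ppard without HFD mouse 155 (adjusted p up to 0.092), while those of Pparg, Cebpa, Klf15, Rxra and Ebf1 were not. Without WT NCD mice 182 and 183, 6 factors were called in WT visWAT, Pparg, Cebpa, Klf15, Rxra, Ebf1 and Ebf2, and 5 were called without HFD mouse 161 or without HFD mouse 162. On the TPM scale the median of all genes moved up by 0.43 in WT visWAT, and only Klf15 and Zfp423 were called. Relative to that median Pparg was at -0.77, Cebpa at -0.86 and Klf15 at -1.43. With mouse 183 left out, the TPM scale called 7 factors, Pparg (-0.77) and Cebpa (-0.83) among them. Genes called in WT visWAT were 3108 higher and 2239 lower in FPKM, 3805 and 227 in TPM, 4941 and 1287 in TPM without mouse 183, and 2693 and 3169 in edgeR on the recovered reads.

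**Figure D2:**
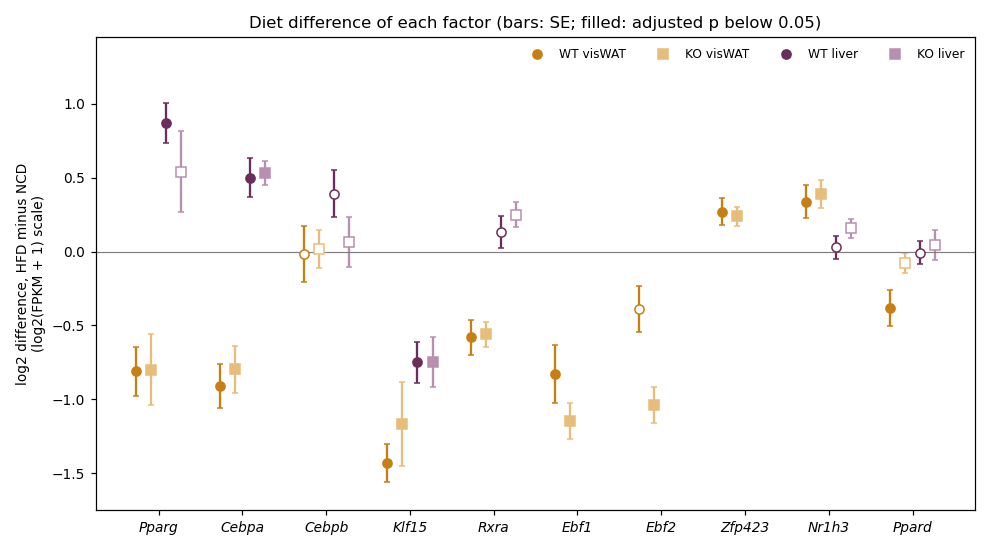
Difference between HFD and NCD (log2(FPKM + 1) scale) of the 10 factors in WT and MlklAdi-KO (KO) visWAT and liver, with SE bars and filled symbols for an adjusted p below 0.05. Pparg and Cebpa lie below 0 in visWAT and above 0 in liver, Klf15 lies below 0 in all 4 comparisons, and Ebf1, Ebf2 and Zfp423 have no liver symbol because they were under the expression filter there.

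Cell markers moved with these levels in visWAT. In WT, 10 of 10 macrophage markers and 9 of 10 markers of progenitors and fibroblasts rose, while 7 of 10 adipocyte markers fell and 1, Lep, rose. In MlklAdi-KO the counts were 8 and 6 of 10 higher for macrophages and progenitors, and 4 lower and 2 higher for adipocytes. Over all genes tested, 21.9% rose and 15.8% fell in WT visWAT, and 23.3% rose and 20.3% fell in MlklAdi-KO visWAT. The summed macrophage markers went from 181 to 276 FPKM in WT NCD to 1579 to 2223 in WT HFD, and from 240 to 415 to 619 to 2038 in MlklAdi-KO. The summed adipocyte markers went from 12499 to 25124 FPKM to 5693 to 7500 in WT and from 19768 to 24430 to 6568 to 15348 in MlklAdi-KO. These sums follow Cfd in large part, whose mean went from 9491 to 389 FPKM in WT and from 11603 to 1844 in MlklAdi-KO. The marker Cidec did not fall, with means of 1453 and 1514 FPKM in WT and 1429 and 2016 in MlklAdi-KO. No marker of these 3 lists was at 0 throughout a visWAT group. Among the other lists, 1 of 5 tested lymphocyte markers rose in WT visWAT, 3 of 10 endothelial markers fell and none of 9 mesothelial markers passed the test in limma. The lymphocyte count lay near the share over all genes, and nothing is read from it. The part of all these cells in the lower Pparg, Cebpa and Klf15 levels and in the higher Nr1h3 and Zfp423 levels was not tested. In bulk tissue, fewer cells of a type and less RNA per cell cannot be told apart.

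The other transcription factors of adipogenesis leaned the same way. Of 35 tested in WT visWAT, 12 fell and 3 rose, with a median of -0.21, where 15.8% of all genes fell and 21.9% rose. Of 34 tested in MlklAdi-KO, 19 fell and 2 rose, with a median of -0.32, where 20.3% of all genes fell and 23.3% rose. The lipogenic factors Mlxipl (ChREBP) and Srebf1 fell by 1.76 ± 0.27 (adjusted p = 7.9e-04) and 1.24 ± 0.17 (adjusted p = 4.6e-04) in WT. Egr2, which is also a factor of activated macrophages, rose by 2.27 ± 0.11 in WT. Among partners and coregulators of PPARγ, 7 of 19 fell and 2 rose in WT and 11 fell and 1 rose in MlklAdi-KO, led by Nrip1, a corepressor of nuclear receptors (-1.09 ± 0.15 and -1.13 ± 0.14).

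Of 24 listed targets of PPARγ and C/EBPα in adipocytes, 12 fell and 1 rose in WT visWAT (median -0.63), and 10 fell and 3 rose in MlklAdi-KO (median -0.26). Over all genes, 15.8% and 20.3% fell and 21.9% and 23.3% rose. Every gene of the adipocyte marker list but Car3 is also among these targets. The marker counts and the target counts are therefore not separate observations. Cfd, the gene of the serum protease adipsin, fell by 4.51 ± 0.44 (adjusted p = 4.5e-05) in WT and by 3.30 ± 0.76 (adjusted p = 0.0076) in MlklAdi-KO. The lipogenic enzyme gene Acaca fell by 3.09 ± 0.50 and 2.57 ± 0.24. The fatty acid carrier Fabp4 differed by -0.24 ± 0.22 and 0.04 ± 0.19 and was not called. Of 14 tested genes listed as targets of PPARδ and PPARα together, 6 rose and 1 fell in WT and 10 rose and 1 fell in MlklAdi-KO. Ucp2 of this list, a mitochondrial carrier that macrophages also express, was at 2.61 ± 0.18 and 1.94 ± 0.29. Of 11 LXR targets tested, 3 rose and 3 fell in WT and 4 rose and 4 fell in MlklAdi-KO.

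In liver the order of the factors was different. In WT NCD liver Cebpa was highest at 229 ± 43.6 FPKM (SD, n = 4), followed by Cebpb (141 ± 34.1), Klf15 (129 ± 21.3), Rxra (94.7 ± 14.2) and Nr1h3 (48.4 ± 5.57), then Pparg (5.83 ± 0.71), Ppard (1.71 ± 0.22) and Zfp423 (0.141 ± 0.075). Cebpb, Klf15 and Rxra overlapped with each other within 1 SD. Ebf1 had at most 7 reads in any liver library and Ebf2 at most 2. In WT NCD visWAT the order was Cebpa (394 ± 75.7), Pparg (57.2 ± 15.2), Cebpb (52.2 ± 18.4), Klf15 (35.1 ± 4.61), Nr1h3 (31.1 ± 4.91), Rxra (28.7 ± 4.85), Ebf1 (9.57 ± 3.12), Zfp423 (5.46 ± 0.61), Ppard (4.78 ± 1.14) and Ebf2 (3.92 ± 1.07). Of these neighbours, Cebpa and Pparg, Rxra and Ebf1, and Ebf1 and Zfp423 lay more than their SDs apart, and the other neighbours overlapped within 1 SD.

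Pparg rose in fatty WT liver while it fell in the visWAT of the same mice. It was at 6.32, 5.12, 6.55 and 5.33 FPKM in WT NCD liver (mice 165, 180, 182 and 183) and at 12.4, 10.4, 8.79, 11.4 and 15.0 in WT HFD liver (mice 154, 155, 161, 162 and 164). Every HFD liver was above every NCD liver. The rise was 0.87 ± 0.13 on the log2 scale (adjusted p = 0.0018), or 1.99-fold between the mean FPKM. The adjusted p stayed between 3.4e-08 and 0.0073 over the alternative settings. That Pparg rises here was known from earlier results of these data, so this p-value is no independent evidence. The values rest on 279 to 401 reads on NCD and 508 to 812 on HFD.

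In MlklAdi-KO liver Pparg was at 5.36, 3.48, 5.34 and 5.89 FPKM on NCD (mice 166, 179, 197 and 199) and at 7.87, 8.87, 13.4, 7.18 and 3.66 on HFD (mice 151, 152, 153, 156 and 157). Mouse 157 lay within the NCD range and the other HFD mice above it. The difference was 0.54 ± 0.28 and was not called (adjusted p = 0.19). Without mouse 157 it was 0.76 (adjusted p = 0.027). The change in MlklAdi-KO liver minus that in WT liver was -0.33 ± 0.33 (adjusted p = 0.98), so a difference in the rise between genotypes was not detectable with these animals.

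Cebpa rose in liver in both genotypes, by 0.50 ± 0.13 (adjusted p = 0.022) in WT and by 0.53 ± 0.08 (adjusted p = 0.0021) in MlklAdi-KO. Its WT NCD livers were at 244, 247, 164 and 259 FPKM, with mouse 182 apart, and its WT HFD livers at 314, 283, 329, 346 and 325. Without WT HFD mouse 162 the Cebpa call in WT was lost (adjusted p = 0.0511). Klf15 fell in liver as it did in visWAT, by 0.75 ± 0.14 (adjusted p = 0.0043) in WT and by 0.75 ± 0.17 (adjusted p = 0.012) in MlklAdi-KO, from 129 ± 21.3 to 76.0 ± 11.2 FPKM in WT. In WT liver, 2 of 7 factors tested rose and 1 fell, where 13.2% of 13330 genes rose and 12.1% fell. In MlklAdi-KO liver, 1 rose and 1 fell, where 11.9% of 13149 genes rose and 10.3% fell.

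The remaining nuclear receptors were steadier in liver. Rxra differed by 0.13 ± 0.11 (adjusted p = 0.40) in WT and 0.25 ± 0.08 (adjusted p = 0.062) in MlklAdi-KO, Nr1h3 by 0.03 ± 0.08 and 0.16 ± 0.06, and Ppard by -0.01 ± 0.08 and 0.04 ± 0.10, none of them called. Cebpb differed by 0.39 ± 0.16 (adjusted p = 0.11) in WT and 0.06 ± 0.17 in MlklAdi-KO. Ebf1, Ebf2 and Zfp423 were under the filter and were not tested. Zfp423 had 8 to 25 reads in WT NCD liver and 26 to 50 in WT HFD liver (0.371 ± 0.060 FPKM), and 15 to 32 in MlklAdi-KO HFD liver.

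Of the 10 adipocyte markers, 7 passed the filter in liver, and 5 of them rose in WT and 4 in MlklAdi-KO. Cfd went from 2.11 ± 1.99 to 26.0 ± 19.7 FPKM and Cidec from 12.98 ± 6.99 to 78.1 ± 16.2 in WT liver. Other markers of the list were near 0. Adipoq was at 0 to 0.250 FPKM, Plin1 at 0 to 0.0263 and Lep at 0 to 0.0457 in all livers but that of WT HFD mouse 155, which had Adipoq at 2.70, Plin1 at 1.18 and Lep at 0.875. The Pparg level of that liver, 10.4 FPKM, lay inside the range of the other 4 WT HFD livers, and without it the Pparg difference was 0.90 (adjusted p = 0.0041). The part of fat cells in the liver level of Pparg was not tested. Of 8 macrophage markers tested in WT liver and 7 in MlklAdi-KO liver none was called by limma. Of 10 Kupffer cell markers 2 rose in WT liver and none was called in MlklAdi-KO, and of 10 hepatocyte markers 4 fell in WT and 5 fell and 1 rose in MlklAdi-KO. None of 10 stellate cell markers was called in either genotype, and of 6 cholangiocyte markers tested in WT liver 1 rose and 1 fell. Over all genes tested, 13.2% rose and 12.1% fell in WT liver, and 11.9% rose and 10.3% fell in MlklAdi-KO liver. The Kupffer cell and cholangiocyte counts lay near these shares, and nothing is read from them. The part of these cells in the liver levels of Pparg, Cebpa and Klf15 was not tested.

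Of 19 tested targets of PPARγ in fatty liver, 7 rose and 3 fell in WT (median 0.32), and 3 rose and 3 fell in MlklAdi-KO (median 0.12). Over all genes tested, 13.2% rose and 12.1% fell in WT liver and 11.9% and 10.3% in MlklAdi-KO liver, and the MlklAdi-KO count lay near these shares. In WT liver the genes of the lipid droplet proteins Cidea, Plin4 and Cidec rose by 3.05 ± 0.62 (adjusted p = 0.0068), 2.66 ± 0.21 (adjusted p = 5.9e-05) and 2.63 ± 0.33 (adjusted p = 5.9e-04). None of these was called in MlklAdi-KO liver, where Cidea differed by 1.62 ± 0.84 (adjusted p = 0.20), Plin4 by 1.75 ± 0.63 (adjusted p = 0.076) and Cidec by 1.53 ± 0.76 (adjusted p = 0.18). Plin2, which encodes another droplet protein, differed by -0.08 ± 0.08 in WT and -0.48 ± 0.24 in MlklAdi-KO and was not called. Lpl, the lipoprotein lipase gene, fell by 2.82 ± 0.41 in WT and by 1.88 ± 0.28 in MlklAdi-KO, and Scd1, a desaturase gene, fell by 1.39 ± 0.18 and 2.0 ± 0.46. Of 19 tested adipocyte targets, 8 rose and 4 fell in WT liver and 6 rose and 3 fell in MlklAdi-KO liver. The lists share genes with each other and with the adipocyte markers, of which Cfd rose by 3.05 ± 0.66 and Car3 by 0.82 ± 0.18 in WT liver. Of 16 tested genes listed for PPARδ and PPARα together, 2 rose and 4 fell in WT liver and 1 rose and 5 fell in MlklAdi-KO liver. The share that rose in WT was close to the 13.2% of all genes. The list does not separate the 2 receptors. Cyp4a14, a microsomal fatty acid hydroxylase gene of the same list, fell by 2.34 ± 0.20 in WT and by 3.26 ± 0.52 in MlklAdi-KO. Of 14 LXR targets, 4 rose and 6 fell in WT liver and 2 rose and 2 fell in MlklAdi-KO. The other adipogenic transcription factors were divided in liver, with 7 higher and 8 lower of 27 in WT and 8 higher and 3 lower in MlklAdi-KO, and Srebf1 rose in both (0.97 ± 0.18 and 1.39 ± 0.22) where it fell in visWAT. Of 20 partners and coregulators, 5 rose and 3 fell in WT liver and 3 rose and 2 fell in MlklAdi-KO. With lists of this size, counts of 2 or 3 genes are about what the shares over all genes amount to, and nothing is read from them.

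**Figure D3:**
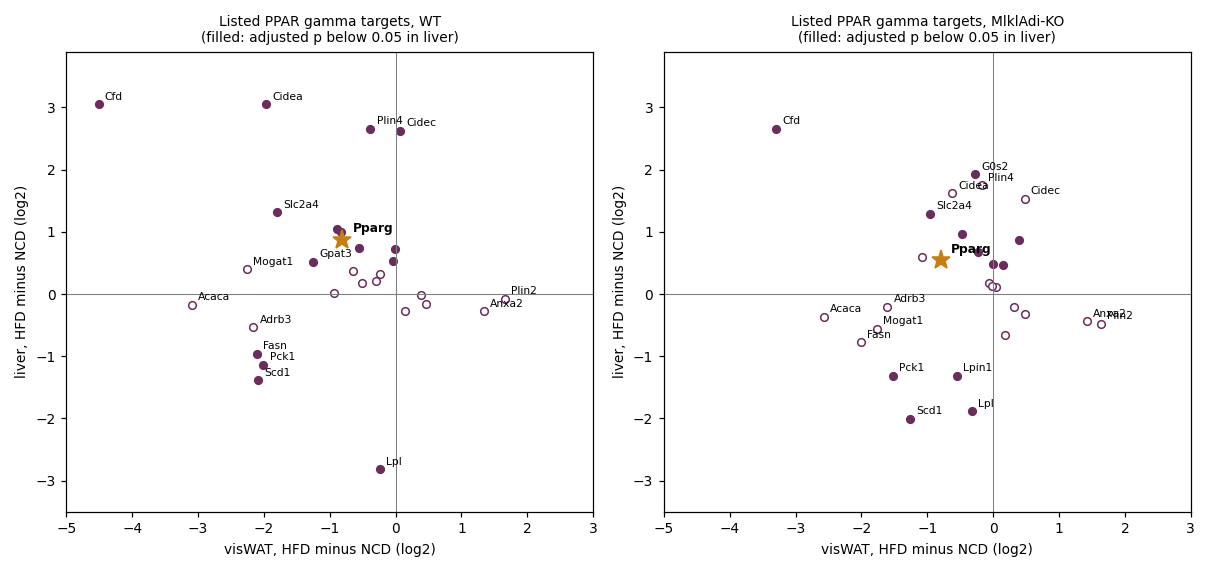
Difference between HFD and NCD (log2) of the listed PPARγ targets tested in both tissues, visWAT on the x axis and liver on the y axis, for WT and MlklAdi-KO, with filled dots for an adjusted p below 0.05 in liver and a star for Pparg, whether called or not. Cfd, at -4.51 in visWAT and 3.05 in liver of WT mice, lies farthest from the origin on the side where Pparg lies, low in visWAT and high in liver, and Scd1 and Pck1 lie below 0 in both tissues.

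In liver the genes most like Pparg over the 18 libraries, of 10263 ranked, were Msra (r = 0.94), Plscr4 (0.92), Hadh (0.88), Cidec (0.88) and Zbed5 (0.88). These libraries share their diet groups, so the ranking pools NCD and HFD and is a description. Correlations within diets were taken only among the factors. Cebpa stood at rank 1694 (r = 0.45), where in visWAT it was first, and Klf15 at rank 10084 (r = -0.73). Within diets, the liver correlation of Pparg with Cebpa was -0.04 over the 8 NCD libraries and -0.62 over the 10 HFD libraries. Cidec was at 96.0, 59.1, 63.8, 90.6 and 81.3 FPKM in WT HFD livers and at 13.8, 63.3, 78.0, 16.4 and 6.55 in MlklAdi-KO HFD livers. The MlklAdi-KO HFD livers with the most Cidec, those of mice 152 and 153, also had the most Pparg, and mouse 157 had the least of both. In visWAT, mouse 157 had the most Pparg of its group and mice 152 and 153 the least.

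**Figure D4:**
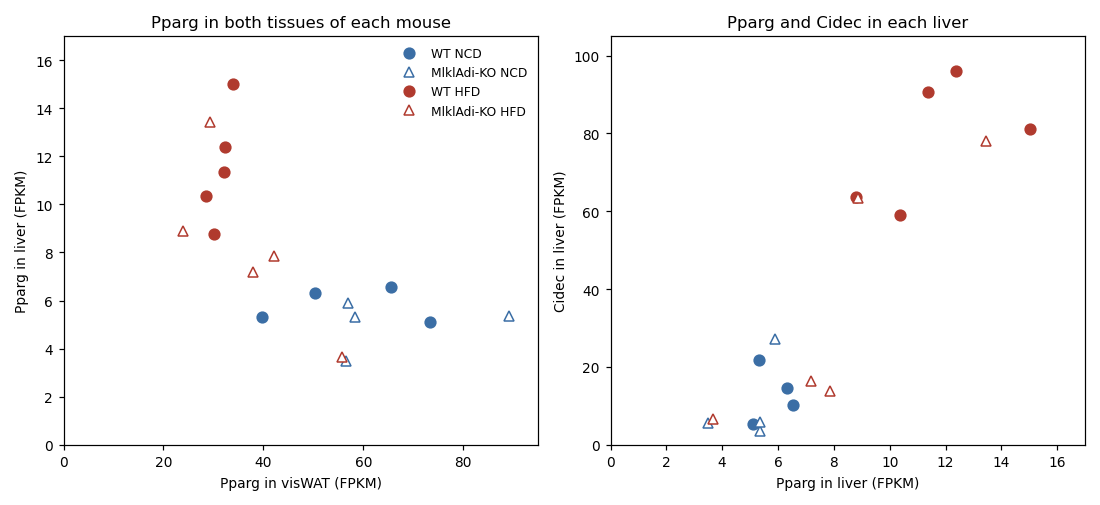
Pparg in visWAT against Pparg in liver (left) and Pparg against Cidec in liver (right), in FPKM on linear axes, with 1 symbol per mouse. WT HFD mice sit at 28.5 to 34.0 FPKM in visWAT and 8.79 to 15.0 in liver, and MlklAdi-KO HFD mouse 157, at 55.7 and 3.66, sits among the NCD mice.

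The opposite courses of Pparg were tested as the liver change minus the visWAT change. For Pparg it was 1.68 ± 0.22 (adjusted p = 1.6e-05) in WT and 1.34 ± 0.39 (adjusted p = 0.012) in MlklAdi-KO, and 1.83 in WT without mice 182 and 183. The contrast of Pparg between the tissues was singled out with earlier results of these data known, so these p-values too are no independent evidence. Cebpa gave 1.41 ± 0.20 (adjusted p = 4.2e-05) and 1.33 ± 0.19 (adjusted p = 5.0e-05), and Rxra 0.71 ± 0.16 (adjusted p = 0.0025) and 0.81 ± 0.12 (adjusted p = 1.1e-04). For Rxra the difference came with a called fall in visWAT and no called change in liver. Klf15 fell in both tissues, by more on this scale in WT visWAT (0.68 ± 0.20, adjusted p = 0.011), and in MlklAdi-KO the tissues were not told apart (0.42 ± 0.35, adjusted p = 0.36). Ebf1 in both genotypes (0.82 ± 0.21 and 1.13 ± 0.13) and Ebf2 in MlklAdi-KO (1.03 ± 0.14) were called as well, but with almost no reads in liver these values are the visWAT fall with its sign turned, and edgeR and DESeq2 called neither gene. Zfp423 depended on the scale: its WT value was -0.0035 in log2(FPKM + 1), and 1.13 (adjusted p = 0.0046) in edgeR.

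In all, 5 of 10 factors were called with a positive difference in each genotype, where 18.2% of 14746 genes were in WT and 19.4% of 14571 in MlklAdi-KO. Ebf1 in both genotypes and Ebf2 in MlklAdi-KO enter this count only through visWAT, so the count is not read as a result about the factors. The other called factors were Pparg, Cebpa, Klf15 and Rxra in WT, and Pparg, Cebpa and Rxra in MlklAdi-KO. With the mouse as a block, Ppard was called too in WT (0.37, adjusted p = 0.034, against 0.054 without the block). On the TPM scale only Pparg was called in WT (1.29, adjusted p = 0.017), and 6 factors were when mouse 183 was left out. The split of all calls in WT was 2687 higher and 3214 lower in FPKM, 576 and 4017 in TPM, and 1731 and 4360 in TPM without mouse 183. In TPM, mean Pparg was 16.7 times higher in visWAT than in liver in WT NCD mice and 5.81 times in WT HFD mice, and 26.99 and 9.42 times in MlklAdi-KO mice. The WT NCD ratio includes visWAT mouse 183, whose FPKM summed to 564718 against 243503 to 309820 in the rest of its group. That larger sum lowers its TPM, so the WT NCD and MlklAdi-KO NCD ratios are not compared. Cebpa on HFD was higher in liver in FPKM (1.55 times in WT) and higher in visWAT in TPM (1.39 times), so its order between the tissues depends on the scaling.

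Loss of Mlkl in adipocytes was not accompanied by a called change of any factor. No factor was called by limma between MlklAdi-KO and WT in HFD visWAT, NCD visWAT, HFD liver or NCD liver, where 0.0215%, 0%, 0.197% and 0.00758% of genes tested were called. At an unadjusted p below 0.05 there were 0, 1, 2 and 0 factors, and edgeR and DESeq2 called none. For the comparison with 0% of genes called, 528 of 14063 genes had an unadjusted p below 0.05, edgeR called 0 and DESeq2 8. Pparg differed by 0.21 ± 0.19 in HFD visWAT, 0.19 ± 0.23 in NCD visWAT, -0.52 ± 0.25 (adjusted p = 0.44) in HFD liver and -0.20 ± 0.14 in NCD liver. The HFD liver values overlapped, at 8.79 to 15.0 FPKM in WT and 3.66 to 13.4 in MlklAdi-KO. The largest difference in visWAT was that of Ebf2 on NCD, 0.50 ± 0.18 (adjusted p = 0.92). Without WT NCD mice 182 and 183 the NCD visWAT differences were 0.23 for Ebf2 and 0.07 for Pparg (both adjusted p = 1.0).

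The genotype effect on HFD minus that on NCD was not called for any factor by limma, edgeR or DESeq2, in visWAT, where 0% of 14136 genes were called, or in liver, where 0.0151% of 13248 were. At an unadjusted p below 0.05 there were 1 factor in visWAT, Ebf2 (-0.65 ± 0.21, adjusted p = 0.33, and -0.38 without mice 182 and 183), and 0 in liver. In visWAT 1867 genes had an unadjusted p below 0.05, and edgeR called 0 genes and DESeq2 19. The Pparg value there was 0.01 ± 0.31 (adjusted p = 0.99), and its sign changed with the scaling (-0.47 in TPM).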

How the data were processed

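RNA of visWAT and liver was sequenced as paired-end poly(A) libraries. Per the labels and the study's methods, the authors trimmed reads with Fastp, aligned them to mm39 with HISAT2, counted them per gene with featureCounts 1.5.0-p3 and deposited FPKM per gene and library. Strandedness, annotation release and treatment of multi-mapping reads are not given in the sources used here. The authors also deposited read counts in 4 comparison tables, whose fold changes and p-values were not used. These counts gave the factor behind each library's FPKM, and from it reads were recovered (100% of values whole within 0.01 reads). A further 72 columns of values per sample were not used.

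Groups were taken from the labels. Here log2(FPKM + 1) was tested with limma 3.58.1 (empirical Bayes with trend) in R 4.3.3, with only the groups compared in each fit, on genes with a mean of at least 0.5 FPKM, with Benjamini-Hochberg adjustment over all genes tested. Where SD or SE is printed, n is 4 for NCD and 5 for HFD groups. Each library is 1 mouse. Alternatives were the TPM scale, a pseudocount of 0.1, no filter, a mean of at least 1 FPKM, edgeR 4.0.16 and DESeq2 1.42.0 on recovered reads, each library left out in turn and, between tissues, the mouse as a block. The library numbers name the same animal in both tissues. Deviations from the group means correlated between tissues at -0.066 to 0.24 over 18 mice. The fits without mice 182 and 183 and in TPM without mouse 183 were added after the data were seen. The fits were tested on simulated data.

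The 10 factors and the gene lists were chosen with earlier results of these data known. Named are the 10 factors and, from each list, at most the 3 called genes with the largest difference and the 3 with the highest level in the tissue. Genes most like Pparg are the 5 with the highest Pearson r among genes with a mean of at least 1 FPKM, without predicted genes. Other genes named (Plin1, Lep and Cidec in liver, and genes given in the second genotype) were chosen after their values were seen. No gene of an epididymis list passed the filter in visWAT. Promoter windows are from RefSeq (GRCm38.p6), while gene coordinates are those of the deposited table.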

Additional observations from a re-analysis of the deposited data

Results flagged for a closer look

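Of 80 groups of values checked for a library far from the others, 6 held one, where chance alone flags about 1 group in 20 if values are normally distributed. That rate does not hold for values near 0. The 80 include Ebf2 in WT NCD and WT HFD liver, where every value was 0 and no library could be flagged. Pparg stood apart in MlklAdi-KO NCD visWAT in mouse 166 (89.1 FPKM, the others 56.5 to 58.2), and Ppard in WT HFD visWAT in mouse 164 (3.85 FPKM). In liver the library labelled WT NCD mouse 182 was low for Cebpa (164 FPKM, the others 244 to 259), and MlklAdi-KO NCD mouse 197 was high for Zfp423 (0.214 FPKM). The Ebf2 values of MlklAdi-KO NCD mouse 166 (0.0159 FPKM) and MlklAdi-KO HFD mouse 151 (0.00883 FPKM) rest on 2 reads and 1 read, with no read in the rest of each group. In such a group the only library with reads is always flagged, so nothing is read from these flags.

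The diet difference itself differed between liver and visWAT by limma's interaction term for 5 factors in each genotype, all with a positive difference. Over all genes tested, 18.2% in WT and 19.4% in MlklAdi-KO were called with a positive difference. On the log2(FPKM + 1) scale, the liver change exceeded the visWAT change in WT by 1.68 for Pparg, 1.41 for Cebpa, 0.71 for Rxra and 0.68 for Klf15. In MlklAdi-KO it did so by 1.34 for Pparg, 1.33 for Cebpa and 0.81 for Rxra. Ebf1 (0.82 in WT and 1.13 in MlklAdi-KO) and Ebf2 (1.03 in MlklAdi-KO) were also called. With almost no reads in liver, their values are the visWAT fall with its sign turned.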

How the results depend on the processing

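Over 64 values of the factors given above, 1056 alternative values were computed, of which 939 kept direction and side of the threshold, 48 lost a call, 23 gained one and 46 changed sign. In WT visWAT the factors called went from 8 to 2 in TPM and 5 without a filter, and ranged from 5 to 8 with each library left out. Between tissues they went from 5 to 1 in TPM in WT and from 5 to 3 in edgeR and 3 in DESeq2 in MlklAdi-KO. With the mouse as a block, 6 factors were called in WT and 5 in MlklAdi-KO, and beyond Ppard in WT no call of a factor changed.

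The sign changed as follows. In TPM, Cebpb in WT visWAT was 0.46, Ppard 0.0047 there and 0.012 in WT liver, Pparg -0.47 for genotype by diet in visWAT, and Cebpb -0.035 between tissues in WT. In TPM without mouse 183 the Cebpb value was 0.15 and the Pparg value -0.052, and without mice 182 and 183 Cebpb was 0.23. Between tissues in WT, Zfp423 was 0.70 with a pseudocount of 0.1, 1.13 in edgeR, 1.12 in DESeq2, 0.15 without mice 182 and 183 and 0.039 in TPM without mouse 183, and in MlklAdi-KO 0.035 in edgeR and 0.032 in DESeq2. With each library left out, Cebpb ranged from -0.15 to 0.20 in WT visWAT, -0.052 to 0.12 in MlklAdi-KO visWAT, -0.056 to 0.24 in MlklAdi-KO liver and -0.038 to 0.17 between tissues in MlklAdi-KO. Nr1h3 ranged from -0.053 to 0.071 and Ppard from -0.048 to 0.035 in WT liver, Ppard from -0.041 to 0.10 in MlklAdi-KO liver, Pparg from -0.14 to 0.17 for genotype by diet in visWAT and Zfp423 from -0.077 to 0.063 between tissues in WT. The causes were not tested.

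All genes called between genotypes ranged over the alternatives from 2 to 146 in HFD visWAT, 0 to 8 in NCD visWAT, 7 to 259 in HFD liver and 1 to 19 in NCD liver, and for genotype by diet from 0 to 19 in visWAT and 1 to 58 in liver, with no factor among them under any setting. Depth limits Ebf1, Ebf2 and Zfp423 in liver, where they had at most 50 reads.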
